A study of Homo sapiens with 12 samples.

Results

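HT29 is a human colorectal adenocarcinoma cell line. The data concern HT29 cells kept for 24 h with a water extract of ACD, the herb Aconitum carmichaeli Debeaux. The dose was the medium one, 100 µg/mL. These cells were compared with HT29 cells kept for the same time with vehicle (PBS with 2% DMSO). In the paper, the extract was dissolved in the same liquid, and a small volume was added to the growth medium. The 2% therefore describes the added liquid, not the DMSO around the cells. There were 3 RNA sequencing libraries per group, chosen by their titles, so that 6 of the 12 HT29 libraries are compared. The other libraries, 3 at the low dose (20 µg/mL) and 3 at the high dose (500 µg/mL), served to set the spread of each gene and to place the medium dose among its neighbours. ACD is the herb named in the titles and treatment field, but the labels also carry a protocol note on a different herb, Poria cocos. A single cell line was used, and nothing in the sources says that the replicates of a group came from separate cultures, so the p-values measure the spread between these libraries, which may be technical. In RNA from whole cultures, fewer cells that make a transcript and less of it per cell cannot be told apart.

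All genes with enough counts were members, which gave 15374 genes tested of 29861 with a count in any library. The total was between 18260737 and 31811972 expected counts in the vehicle libraries and between 21499096 and 29876681 in the medium-dose libraries. Of 12 markers of colon epithelium, including EPCAM, CDH1 and KRT20, all passed the filter on low counts and 0 had an adjusted p under 0.05 between the groups, and their summed expression was between 11495 and 13562 CPM (edgeR's scaled expression, with libraries scaled by the TMM method) in vehicle and between 11375 and 12481 CPM at the medium dose. Among markers of other cells, 5 of 8 astrocyte and glioma markers were at 0 in all 6 libraries, the 9 fibroblast markers summed to between 2.04 and 3.26 CPM and the 5 endothelial markers to between 1.58 and 2.85 CPM. The 8 leukocyte markers summed to between 1662 and 1843 CPM in vehicle and between 1419 and 1592 CPM at the medium dose. Nearly all of that was LYZ, a lysozyme gene that gut epithelium can also express, at 1406 to 1830 CPM, with CD68 at 6.60 to 8.68 CPM and CD14 at 2.55 to 4.35 CPM, while PTPRC, which defines leukocytes, was at most 0.123 CPM. Few of these markers of other cells passed the filter on low counts. Those that passed were 1 of 8 astrocyte and glioma, 3 of 9 fibroblast, 4 of 8 leukocyte and 1 of 5 endothelial markers. None of them had an adjusted p under 0.05, and the others were not tested. Vehicle library 1 stood apart from its group, with a chi-square of the counts, averaged over genes, of 17.0 and 19.5 against vehicle libraries 2 and 3, which differed from each other by 4.41, and the medium-dose pairs lay between 3.93 and 4.85. Without it there were 69 differentially expressed genes (DEGs) between medium dose and vehicle, compared with 104 in all libraries. The share of all counts that fell on the mitochondrial rRNA MT-RNR1 was 0.131% in vehicle and 0.326% at the medium dose, and that on MT-RNR2 was 1.05% and 1.77%, respectively. The part of this shift in the results below was not tested. Leaving both rRNAs out of the table gave 102 DEGs, which are the 104 described below without the 2 rRNAs themselves. The rRNAs hold a small share of the counts in these groups, so their omission could move the other genes little. It cannot show what part the shift had in them.

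Several stress and defence programmes of the intestinal epithelium can be read from known target genes. The aryl hydrocarbon receptor (AhR) is a ligand-activated transcription factor that senses plant and microbial aromatic compounds, binds DNA together with ARNT at a core element, and switches on the CYP1 enzymes that oxidise such compounds. NF-kB is the transcription factor behind most epithelial chemokines, small secreted proteins that attract neutrophils and lymphocytes to the mucosa. NRF2 switches on the genes of glutathione and thioredoxin metabolism through antioxidant response elements, and ATF4 switches on the genes of amino acid supply when translation is restrained.

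The promoters of 5 members of these groups that were upregulated at the medium dose are shown because each holds the core letters of the factor its group is named for. They are RefSeq sequences of GRCh38.p14, given 5′ to 3′ on the strand of the gene and covering the 250 bases before the transcription start. Capitals mark the motif on either strand. The motif is GCGTG, the AhR-ARNT core, in CYP1A1 (chr15:74725529-74725778, minus strand), ALDH1A3 (chr15:100879581-100879830, plus strand) and TIPARP (chr3:156674340-156674589, plus strand). It is TGACNNNGC, the antioxidant response element, in TXNRD1 (chr12:104215529-104215778, plus strand), and, in CXCL1, a loose form of the NF-kB element, which is GGG and CC with any 5 bases between them (chr4:73869143-73869392, plus strand).
CYP1A1: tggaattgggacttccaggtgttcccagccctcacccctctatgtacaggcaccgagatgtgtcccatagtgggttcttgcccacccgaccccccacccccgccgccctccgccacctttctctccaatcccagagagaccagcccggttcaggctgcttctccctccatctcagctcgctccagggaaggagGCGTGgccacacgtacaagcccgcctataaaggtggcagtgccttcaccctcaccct
ALDH1A3: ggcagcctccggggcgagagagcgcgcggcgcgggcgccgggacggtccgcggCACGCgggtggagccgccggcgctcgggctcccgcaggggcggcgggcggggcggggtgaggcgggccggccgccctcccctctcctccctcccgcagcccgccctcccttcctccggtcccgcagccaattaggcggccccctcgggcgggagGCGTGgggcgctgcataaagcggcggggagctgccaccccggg
TIPARP: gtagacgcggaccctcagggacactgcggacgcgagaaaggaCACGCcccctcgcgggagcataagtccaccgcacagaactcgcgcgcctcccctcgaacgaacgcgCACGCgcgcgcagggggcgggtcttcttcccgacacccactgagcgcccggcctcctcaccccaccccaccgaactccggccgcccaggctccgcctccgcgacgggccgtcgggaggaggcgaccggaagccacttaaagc
TXNRD1: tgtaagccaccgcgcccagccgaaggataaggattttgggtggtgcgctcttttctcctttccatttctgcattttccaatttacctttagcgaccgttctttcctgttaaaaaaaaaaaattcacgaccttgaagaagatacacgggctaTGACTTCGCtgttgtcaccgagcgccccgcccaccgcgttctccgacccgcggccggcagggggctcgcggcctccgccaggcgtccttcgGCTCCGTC
CXCL1: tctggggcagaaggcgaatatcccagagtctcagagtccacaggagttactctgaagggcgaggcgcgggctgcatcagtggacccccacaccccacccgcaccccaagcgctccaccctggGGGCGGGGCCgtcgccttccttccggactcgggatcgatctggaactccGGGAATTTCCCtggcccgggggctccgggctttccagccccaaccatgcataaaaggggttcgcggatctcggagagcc

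In a window from 250 bases before to 50 bases after the start, the AhR-ARNT core lay at position −57 of CYP1A1, at −197 and −43 of ALDH1A3 and at −208 and −142 of TIPARP, counted from the start to the first base of the match. In TXNRD1 the antioxidant response element lay at −99 and at −8, and the last base of the second lies beyond the printed stretch. In CXCL1 the loose NF-kB letters lay at −128, −79 and −78, and the last 2 matches overlap. Short letters such as these are common. Of 27305 promoters, 36.3% held the AhR-ARNT core, 13.6% the antioxidant response element and 58.0% the loose NF-kB letters. Of the AhR targets tested, 11 of 13 matched a promoter, without CYP1B1 and ALDH3A1, and 9 of these 11 held the core. The antioxidant letters were in 6 of 22 matched NRF2 targets, and the loose NF-kB letters were in 16 of 17 matched NF-kB targets and 9 of 10 matched chemokines. The C/EBP-ATF element TGATGNAAN was found in 3.67% of all promoters and in 4 of 21 matched ATF4 targets. These matches describe letters, not binding.

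At the medium dose, 104 genes were DEGs against vehicle, called by edgeR's quasi-likelihood test at an adjusted p under 0.05 together with a fold change over 1.5. They were 0.676% of the genes tested. Of these, 59 genes (0.384%) were upregulated and 45 genes (0.293%) were downregulated. By the adjusted p alone, 155 genes (1.01%) passed, of which 88 (0.572%) were higher and 67 (0.436%) were lower. This count depended strongly on the libraries that set the spread. It was 624 when the 6 libraries were fitted alone and 1077 without high-dose library 2 in the joint fit. Without vehicle library 2 it was 59. A gene said below not to have passed the test is one that did not pass in the fit of all 12 libraries. The upregulated genes changed more than the downregulated genes, since the median log2 fold change was 1.24 among the former and −0.94 among the latter, while it was −0.01 over all genes tested. A change over 2-fold was found in 34 upregulated and 20 downregulated DEGs, and a change over 4-fold in 13 and 7, respectively. The medium-dose and vehicle libraries did not overlap in any of the 104 DEGs. Such separation was common in this table, with 2236 genes (14.5%) wholly above vehicle and 2172 genes (14.1%) wholly below.

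The kinds of gene were counted in each direction. Of the 59 upregulated genes, 47 were protein-coding, 7 were long noncoding RNAs (lncRNAs) and 2 were pseudogenes. Of the 45 downregulated genes, 17 were protein-coding, 18 were lncRNAs, 4 were pseudogenes and 5 were unclassified transcripts of the TEC class. Among all genes tested, 81.0% were protein-coding and 11.6% were lncRNAs. The median expression over the 6 libraries was 11.2 CPM for upregulated genes and 4.00 CPM for downregulated genes, compared with 19.4 CPM for all genes tested. The strand setting of the authors' counting is not given in the sources used here, which leaves antisense and overlapping genes uncertain. The count of DEGs depended on the libraries that set the spread. It was 191 when the 6 libraries were fitted alone and 249 when high-dose library 2, which stood apart from its group, was removed from the joint fit, and it was between 52 (without vehicle library 2) and 78 (without vehicle library 3) when 1 vehicle or medium-dose library was left out.

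**Figure D1:**
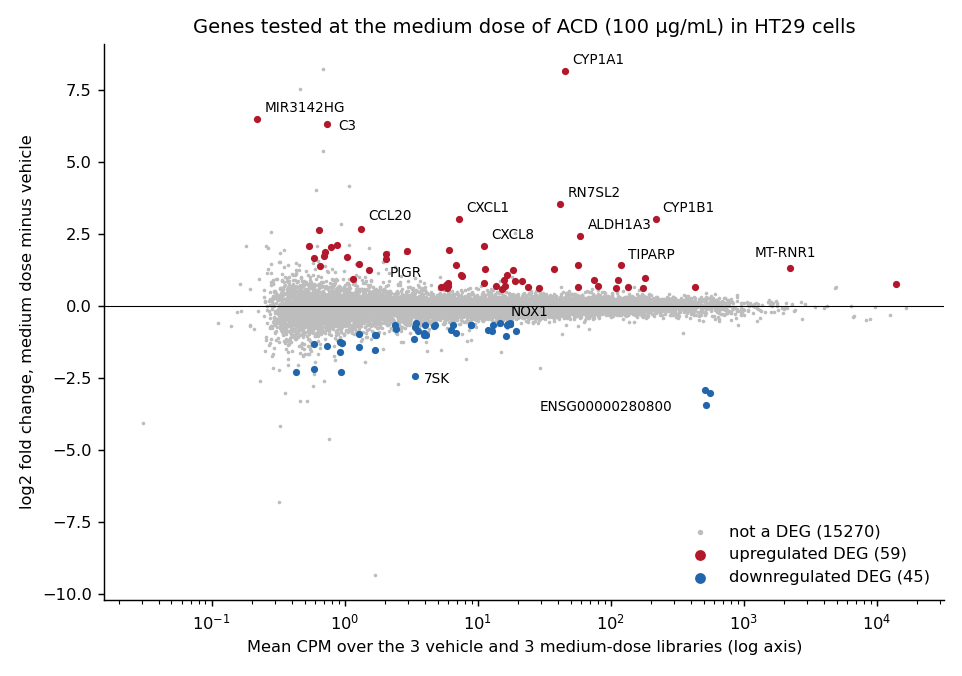
Each point is 1 of the 15374 genes tested, with its mean expression over the 6 libraries (CPM, log axis) against its log2 fold change, medium dose minus vehicle. The 59 upregulated DEGs are in red, the 45 downregulated DEGs in blue and the 15270 other genes in grey, and CYP1A1 lies highest among the DEGs at 8.16.

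The AhR targets were the group with the most DEGs. The lists were chosen with earlier results of these data known, so this rank is a description and not a test. Of 13 tested, 8 were upregulated, 0 were downregulated and all 13 had a log2 fold change above 0, with a median of 0.88. Over all genes tested, 0.384% were upregulated DEGs and 7329 of 15374 had a log2 fold change above 0. The same shares apply to the lists that follow. CYP1A1 (ENSG00000140465, chr15:74719542-74725536), an enzyme that oxidises aromatic hydrocarbons and the usual readout of AhR activity, was almost silent in vehicle, with 0.110, 0.394 and 0.352 CPM from 2, 13 and 8 counts. At the medium dose it reached 85.0, 90.5 and 94.4 CPM, so that the lowest treated library was far above the highest vehicle library. The mean rose from 0.285 ± 0.153 to 90.0 ± 4.70 CPM (SD, n = 3 libraries each). The log2 fold change was 8.16 (standard error of the fit, SE, 0.35, adjusted p = 1.47e-07 by edgeR). That was a 286-fold rise, whose size is only as sure as the few vehicle counts.

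CYP1B1 (ENSG00000138061), the second inducible CYP1 enzyme, had 44, 47.5 and 51.8 CPM in the vehicle libraries and 373, 401 and 384 CPM at the medium dose. It rose 8.08-fold (log2 fold change 3.01 ± 0.15 SE, adjusted p = 7.96e-07 by edgeR), with no overlap between the groups. ALDH1A3 (ENSG00000184254), a dehydrogenase that makes retinoic acid, had 17.7, 18.9 and 19.2 CPM in vehicle and 101, 98.5 and 100.2 CPM at the medium dose. It rose 5.36-fold (log2 fold change 2.42 ± 0.10 SE, adjusted p = 1.47e-07), and the treated libraries lay close together. TIPARP, an ADP-ribosyltransferase that dampens AhR signalling, had 61.3, 64.1 and 68.7 CPM in vehicle and 169.9, 176 and 177 CPM at the medium dose, a log2 fold change of 1.43 (SE 0.09, adjusted p = 3.3e-06). ALDH3A1, a detoxifying aldehyde dehydrogenase, had 22.9, 21.5 and 20.7 CPM in vehicle and 51.7, 52.7 and 53.6 CPM at the medium dose. Its log2 fold change was 1.28 (SE 0.07, adjusted p = 1.67e-06), and the groups did not overlap.

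The other called AhR targets rose less. The log2 fold change was 0.88 for EREG (adjusted p = 0.000644), which encodes the EGFR ligand epiregulin, 0.88 for VIPR1 (adjusted p = 0.00144), the receptor of vasoactive intestinal peptide, and 0.66 for UGT1A6 (adjusted p = 0.0199), a glucuronosyltransferase. UGT1A6 shares exons with the other UGT1A genes, so its count is uncertain, and it was a DEG in only 9 of 16 alternative analyses, where the adjusted p reached 0.111. The remaining members did not pass the test. AHRR, the repressor that AhR itself induces, had a log2 fold change of 0.33 (adjusted p = 0.549) at 4.4 ± 1.03 CPM in vehicle and 5.63 ± 0.380 CPM at the medium dose. NQO1 was at 0.33 (adjusted p = 0.41), NFE2L2 at 0.22, CYP2S1 at 0.21 and SLC7A5 at 0.21. CYP1A2 and LRAT had too few counts to be tested.

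Among the 10 DEGs with the smallest p were also genes outside this list. ADGRF1, an adhesion G protein-coupled receptor, had vehicle values of 28.9, 30.1 and 32.6 CPM and medium-dose values of 83.5, 81.8 and 80.7 CPM (log2 fold change 1.42, adjusted p = 2.41e-06). SLC22A3, an organic cation transporter, had a log2 fold change of 1.29 (adjusted p = 3.55e-05), from 6.61 ± 0.384 to 16.2 ± 0.420 CPM. PIM1, a serine/threonine kinase, had one of 1.23 (adjusted p = 4.9e-05), from 11 ± 0.902 to 26.0 ± 0.805 CPM. All 3 were DEGs in each of the 16 alternatives. The antisense transcripts CYP1B1-AS1 (1.95, adjusted p = 0.000169) and ALDH1A3-AS1 (1.08, adjusted p = 0.000115) were upregulated next to their neighbours CYP1B1 and ALDH1A3, from which their reads cannot be told apart without the strand.

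**Figure D2:**
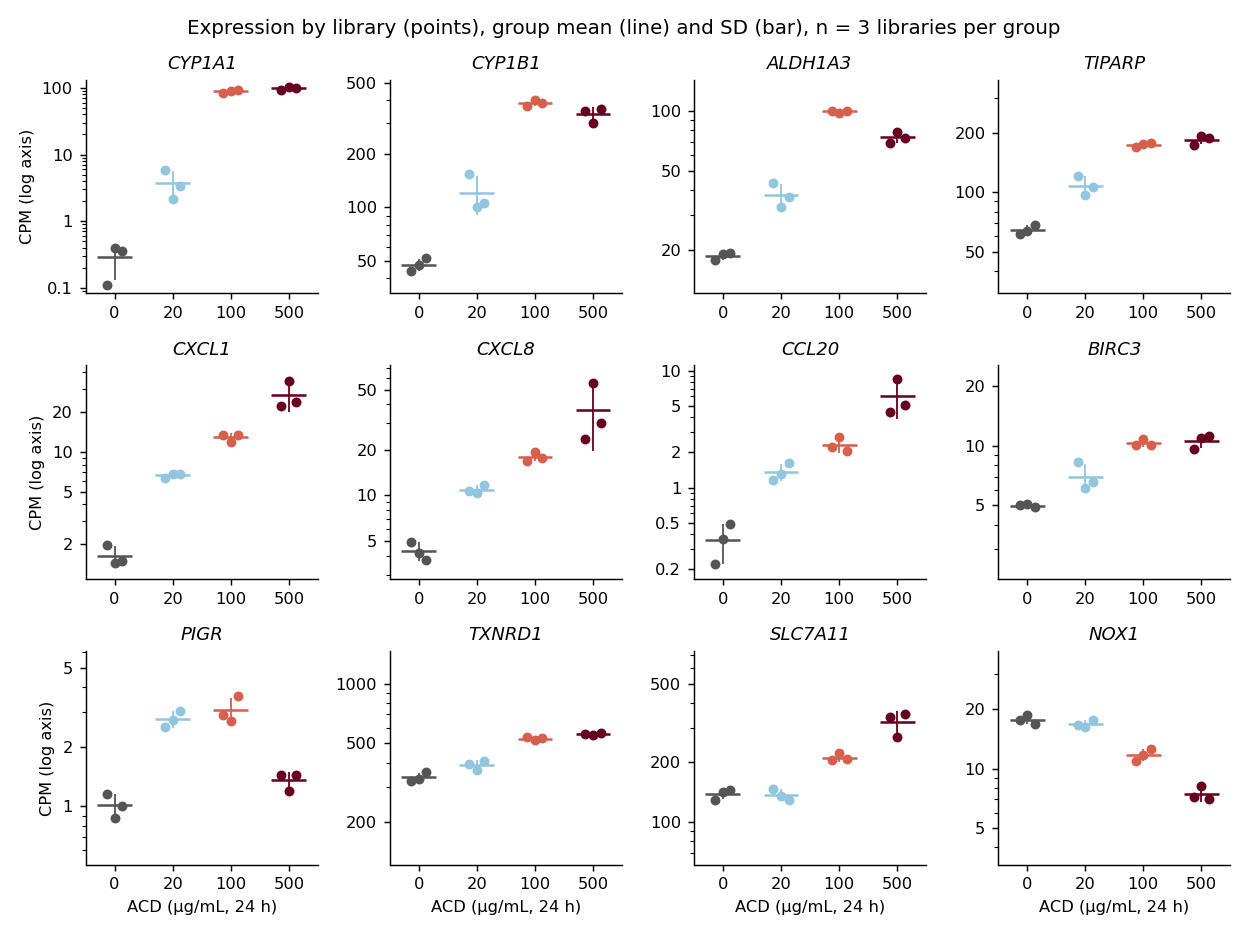
Expression of 12 genes in each HT29 library (CPM, log axis) at 0, 20, 100 and 500 µg/mL of the extract, with points for libraries, a line for the mean and a bar for the SD of 3 libraries. CYP1A1 is at 0.285 CPM in vehicle and at 90.0 CPM at the medium dose, PIGR is at 3.07 CPM at the medium dose and at 1.36 CPM at the high dose, and NOX1 falls from 17.7 to 11.7 CPM at the medium dose.

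Chemokine genes formed the second group with many DEGs. Of 13 tested, 6 were upregulated and 0 were downregulated, 8 had a log2 fold change above 0, and the median was 0.13. All 6 were neutrophil attractants of the CXC family or CCL20, the ligand that draws CCR6-bearing lymphocytes and dendritic cells. CXCL1 (ENSG00000163739, chr4:73869393-73871308) had 1.98, 1.45 and 1.49 CPM in vehicle and 13.4, 11.9 and 13.5 CPM at the medium dose. It rose 7.99-fold (log2 fold change 3.00 ± 0.19 SE, adjusted p = 4.28e-06 by edgeR), with the groups well apart. CXCL8, which encodes interleukin-8, had 4.95, 4.18 and 3.73 CPM in vehicle and 16.9, 19.4 and 17.8 CPM at the medium dose. Its log2 fold change was 2.08 (SE 0.27, adjusted p = 0.00226).

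CCL20 was at 0.220, 0.364 and 0.483 CPM in vehicle and at 2.20, 2.71 and 2.05 CPM at the medium dose, a log2 fold change of 2.66 (SE 0.34, adjusted p = 0.00188 by edgeR). CXCL6 (2.12, adjusted p = 0.0106), CXCL2 (1.74, adjusted p = 0.00594) and CXCL3 (1.24, adjusted p = 0.0331) completed the group, and the highest vehicle library of any of them was at 1.09 CPM. CXCL6 and CXCL3 each lost the call in some of the alternatives (adjusted p up to 0.0756 and 0.148). The other 7 chemokines tested were not DEGs. The interferon-inducible CXCL10 and CXCL11 were at 0.13 and −0.17, CXCL16 at 0.10, CCL5 at −0.68, CCL15 at −0.31, CCL28 at −0.07 and CX3CL1 at −0.42, and none had an adjusted p under 0.05.

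Few of the wider NF-kB targets passed the test. All 19 tested had a log2 fold change above 0, with a median of 0.30, compared with 7329 of 15374 over all genes tested. Upregulated DEGs were 0.384% of all genes tested, and only 1 of the 19 was a DEG. This was BIRC3, an inhibitor of apoptosis that NF-kB induces, which had 5.01, 5.06 and 4.92 CPM in vehicle and 10.1, 10.9 and 10.1 CPM at the medium dose. It rose 2.07-fold (log2 fold change 1.05 ± 0.12 SE, adjusted p = 0.000715 by edgeR). LCN2, the iron-scavenging lipocalin, was at 0.44 (adjusted p = 0.0243) and the RNase gene ZC3H12A at 0.43 (adjusted p = 0.0394), both past the adjusted p but under the minimum fold change. The feedback inhibitors of the pathway did not pass the test, with log2 fold changes of 0.24 for NFKBIA (adjusted p = 0.276) and 0.18 for TNFAIP3 (adjusted p = 0.838), nor did the adhesion molecule ICAM1 (0.53, adjusted p = 0.0689). PTGS2, which encodes the inducible cyclooxygenase, is not in this list and was chosen after its values were seen. It was upregulated from 15.4 ± 1.3 to 27.7 ± 1.94 CPM (log2 fold change 0.85, adjusted p = 0.000703 by edgeR).

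Genes of mucosal defence changed in both directions. Of 13 tested, 3 were upregulated and 1 was downregulated, 9 had a log2 fold change above 0, and the median was 0.34. PIGR (chr1:206928522-206946466), the receptor that carries IgA and IgM across the epithelium, had 1.16, 0.879 and 1.01 CPM in vehicle and 2.89, 2.71 and 3.60 CPM at the medium dose. It rose 3.06-fold (log2 fold change 1.61 ± 0.18 SE, adjusted p = 0.000644 by edgeR), and no treated library reached down to the vehicle range. PI3, which encodes the protease inhibitor elafin, had 4.57, 3.33 and 3.47 CPM in vehicle and 9.64, 10.6 and 9.54 CPM at the medium dose (log2 fold change 1.41 ± 0.14 SE, adjusted p = 0.000218).

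C3, the central complement component, had 1 count in all 3 vehicle libraries together and 112 in the medium-dose libraries. The ratio, scaled to library size, was 108, with an exact 95% interval of 18.9 to 4294 that covers counting error only. NOX1 (ENSG00000007952, chromosome X from 100843324 to 100874359), the superoxide-producing NADPH oxidase of colon epithelium, was the downregulated member. It had 17.6, 18.7 and 16.9 CPM in vehicle and 10.9, 11.7 and 12.5 CPM at the medium dose, with no overlap. NOX1 fell 1.51-fold (log2 fold change −0.60 ± 0.09 SE, adjusted p = 0.00512 by edgeR), just past the minimum fold change, and was a DEG in 13 of 16 alternatives, where the adjusted p reached 0.0504. TLR4 was higher by 0.49 (adjusted p = 0.00898), under the minimum fold change, and TLR6, which is not in the list, was upregulated by 0.94 (adjusted p = 0.0195), a call that 7 of 16 alternatives kept.

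The NRF2 targets showed a modest rise in few genes. Of 30 tested, 4 were upregulated and 0 were downregulated, 7 had an adjusted p under 0.05 with a higher value, and 25 had a log2 fold change above 0, with a median of 0.31. TXNRD1 (ENSG00000198431), which encodes cytosolic thioredoxin reductase, had 324, 332 and 357 CPM in vehicle and 537, 519 and 529.6 CPM at the medium dose. Its log2 fold change was 0.65 (SE 0.07, adjusted p = 0.000644 by edgeR), and all 16 alternatives called it. SLC7A11, the cystine importer that feeds glutathione synthesis, had 129.7, 142 and 145 CPM in vehicle and 205, 223 and 207 CPM at the medium dose (log2 fold change 0.61 ± 0.10 SE, adjusted p = 0.0106). It was a DEG in 12 of 16 alternatives, where the adjusted p reached 0.0696.

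AKR1B10, an aldo-keto reductase with close relatives that can share its reads, rose from 105 ± 5.36 to 166 ± 5.44 CPM (log2 fold change 0.66, adjusted p = 0.0049 by edgeR). OSGIN1, an oxidative stress-induced growth inhibitor, rose from 12.3 ± 1.12 to 19.7 ± 1.3 CPM (0.68, adjusted p = 0.00898), a call that 12 of 16 alternatives kept. The glutathione synthesis enzyme GCLC (0.47, adjusted p = 0.00278), the NADPH-producing malic enzyme ME1 (0.34, adjusted p = 0.0272) and the sulfiredoxin SRXN1 (0.32, adjusted p = 0.0406) were higher but below the minimum fold change. Several textbook members did not pass the test. The heme oxygenase gene HMOX1 was at 0.24 (adjusted p = 0.418), with 9.69, 8.30 and 9.32 CPM in vehicle and 10.4, 10.7 and 11.1 CPM at the medium dose. GCLM was at 0.40 (adjusted p = 0.06) and the ferritin gene FTH1 at −0.00.

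ATF4 targets were close to vehicle at this dose. Of 27 tested, SLC7A11, which also belongs to the NRF2 list, was the 1 DEG, and the median log2 fold change was 0.10. GDF15, a stress-induced cytokine, was at 0.45 (adjusted p = 0.0103), under the minimum fold change. ASNS, the asparagine synthetase, had 55.5, 56.1 and 56.5 CPM in vehicle and 63.7, 63.2 and 63.6 CPM at the medium dose, a difference of 0.18 on the log2 scale that did not pass the test (adjusted p = 0.64). CHAC1, which breaks down glutathione, was at 0.56 (adjusted p = 0.114), the serine synthesis enzyme PSAT1 at 0.14 (adjusted p = 0.541) and the mTORC1 inhibitor DDIT4 at −0.02 (adjusted p = 0.953). None of 20 cytosolic aminoacyl-tRNA synthetases was a DEG, although 18 of them had a log2 fold change above 0 (median 0.14).

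**Figure D3:**
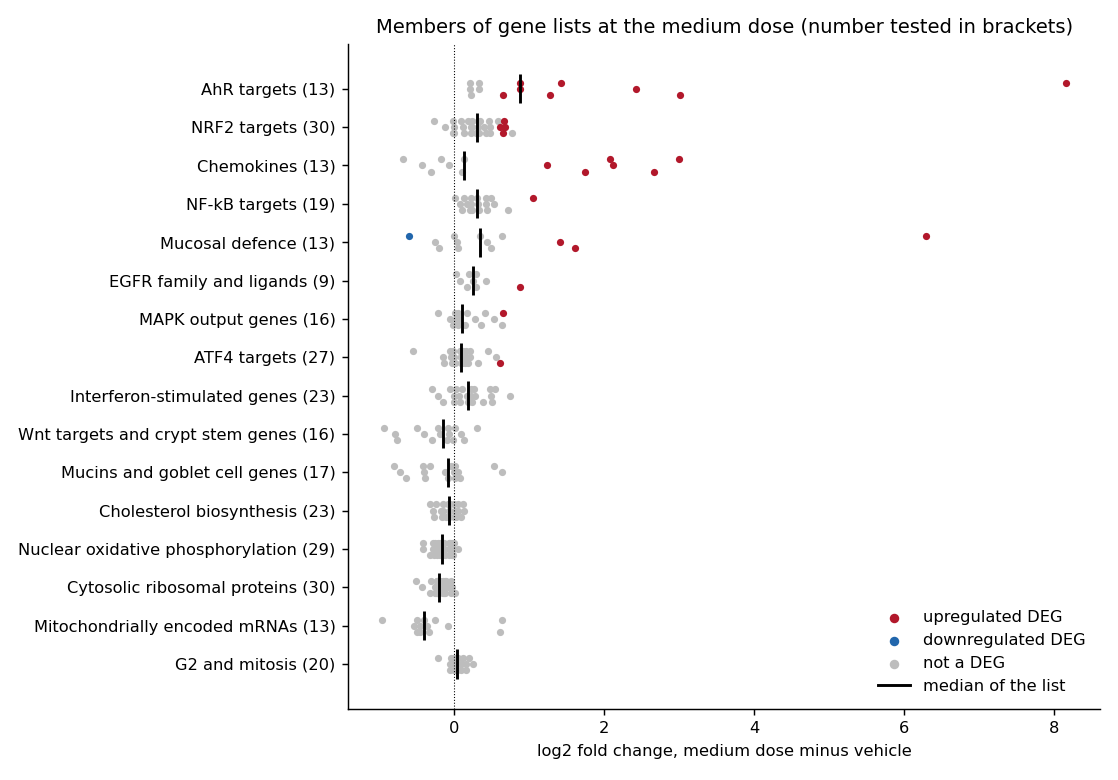
Log2 fold changes, medium dose minus vehicle, of the tested members of 16 gene lists, with 1 point per gene and a bar at the median of each list. The medians run from −0.40 for mitochondrially encoded mRNAs to 0.88 for AhR targets, and the median of all genes tested is −0.01.

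Most other lists held no DEG. In the fit of all 12 libraries, 13 of 43 lists had an upregulated DEG and 2 a downregulated DEG. In that fit, 25 lists had no member with an adjusted p under 0.05 in either direction. Lists share genes, since EREG and UGT1A6, the only DEGs of the EGFR family and the glucuronidation lists, are also AhR targets. Interferon-stimulated genes (0 of 23, median 0.18), genes of cholesterol biosynthesis (0 of 23, median −0.06), of DNA replication and S phase (0 of 24, median 0.08), of G2 and mitosis (0 of 20, median 0.03) and of the proteasome (0 of 31, median 0.00) did not contain a DEG. Neither did endoplasmic reticulum chaperones (0 of 20, median 0.01), cytosolic heat shock genes (0 of 17, median 0.07), p53 targets (0 of 13, median −0.10, in a line with mutant p53) or genes of glycolysis and hypoxia (0 of 21, median 0.04). Nuclear genes of oxidative phosphorylation had no DEG, but 1 of 29 had a log2 fold change above 0 (median −0.17), and the same was true of 1 of 30 cytosolic ribosomal protein genes (median −0.19). Without vehicle library 1, which stood apart, these medians were −0.06 and −0.08, and that of p53 targets was −0.03. Over all genes tested, 7329 of 15374 were above 0. The medians of the AhR, NRF2, NF-kB, chemokine, mucosal defence, oxidative phosphorylation and ribosomal protein lists kept their sign in all 16 alternatives. Their ranges were 0.77 to 0.90 for AhR, 0.28 to 0.32 for NRF2 and 0.25 to 0.32 for NF-kB targets, and −0.20 to −0.06 for oxidative phosphorylation and −0.24 to −0.08 for ribosomal proteins. The chemokine median was less stable, from 0.10 with 7 members at 10 counts or more in every library to 1.51 with 10 members in the 6 libraries alone. It was 0.53 without vehicle library 3 and 0.30 without medium-dose library 2. The median of mucosal defence was between 0.14 (without medium-dose library 1) and 0.43, and that of interferon-stimulated genes changed sign without medium-dose library 3 (−0.02) and was 0.07 without vehicle library 2.

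A few lists held a single DEG. DUSP5, a phosphatase that inactivates ERK, was the only DEG of 16 genes of MAPK output (log2 fold change 0.66, adjusted p = 0.00546 by edgeR), from 4.13 ± 0.374 to 6.55 ± 0.189 CPM. BMF, a pro-apoptotic member of the BCL2 family, was the only DEG of 15 genes of death receptors and BCL2 proteins, and had 4.13, 5.06 and 5.32 CPM in vehicle and 9.04, 10.6 and 10.9 CPM at the medium dose (1.06, adjusted p = 0.00131). POU2F3, the transcription factor that specifies tuft cells, was the only DEG of 6 enteroendocrine and tuft cell genes tested, with 1.21, 0.940 and 0.615 CPM in vehicle and 2.66, 3.10 and 3.69 CPM at the medium dose (1.79, adjusted p = 0.00767). Its call was lost without vehicle library 2. HLA-DMB, which helps to load peptides on MHC class II, was the 1 DEG of 17 genes of antigen presentation (−1.25, adjusted p = 0.0394), from 1.31 ± 0.239 to 0.534 ± 0.144 CPM, and 6 of 15 alternatives kept that call. Of 13 voltage-gated sodium channels, the proteins that aconitine-type alkaloids are known to bind, only SCN8A had enough counts to be tested, and its log2 fold change was 0.20 (adjusted p = 0.863).

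Downregulation at the medium dose was led by noncoding RNAs. FAM215B fell from 5.46 ± 0.419 to 2.72 ± 0.112 CPM (log2 fold change −1.001, adjusted p = 0.00546 by edgeR) and KLRK1-AS1 from 2.27 ± 0.156 to 1.13 ± 0.0738 CPM (−1.01, adjusted p = 0.00905). LINC00261, a lncRNA of endodermal tissues, fell from 16.1 ± 1.64 to 10.0 ± 0.684 CPM (−0.68, adjusted p = 0.0147).

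Apart from NOX1 and HLA-DMB, the protein-coding genes that fell were in none of the lists. NAIP, a sensor of bacterial proteins with near-identical copies in its region, fell from 5.24 ± 0.217 to 2.60 ± 0.500 CPM (−1.001, adjusted p = 0.0259 by edgeR), and 11 of 16 alternatives kept the call. CD200, an immunoregulatory membrane protein, had 8.2, 10.2 and 9.01 CPM in vehicle and 4.82, 4.73 and 4.59 CPM at the medium dose (−0.96, adjusted p = 0.00128). The urea transporter SLC14A1 fell from 8.18 ± 0.646 to 4.52 ± 0.336 CPM (−0.85, adjusted p = 0.00188), and the tubulin-binding protein gene TPPP3 from 24.9 ± 2.51 to 13.6 ± 0.661 CPM (−0.88, adjusted p = 0.00134). METTL7A, a methyltransferase-like gene, was at 3.10 ± 0.137 CPM in vehicle and 1.78 ± 0.128 CPM at the medium dose (−0.79, adjusted p = 0.00918). DEPTOR, an inhibitor of mTOR, was lower by a smaller margin (−0.66, adjusted p = 0.0465), and 10 of 16 alternatives kept the call. CXCL6, VIPR1, PTGS2, TLR6, OSGIN1, ALDH1A3-AS1, LINC00261, CD200, SLC14A1, TPPP3 and DEPTOR were chosen after their values were seen.

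Some short or repeated noncoding RNAs separated all extract libraries from all vehicle libraries. RN7SL2, the RNA of the signal recognition particle, had 9.08, 6.36 and 4.79 CPM in vehicle and 60.1, 94.5 and 75 CPM at the medium dose (log2 fold change 3.52 ± 0.52 SE, adjusted p = 0.00546 by edgeR). Its call was lost without the filter on low counts and without vehicle library 2. It was between 54.4 and 230.3 CPM in the low-dose and high-dose libraries. Its near-identical copy RN7SL1, with which it can share reads, was at 2.54 (adjusted p = 0.0667). The 7SK gene copy ENSG00000202198 was lower, with 6.38, 5.61 and 5.05 CPM in vehicle and 1.24, 0.783 and 1.15 CPM at the medium dose (−2.44, adjusted p = 0.0394), and 8 of 16 alternatives kept the call. The loci ENSG00000280800, ENSG00000280614 and ENSG00000281181 on chromosome 21 were between 842 and 1114 CPM in the vehicle libraries and between 58.9 and 158.3 CPM at the medium dose. Their log2 fold changes were −3.46, −3.05 and −2.93, and they are near-identical copies with equal values in several libraries, so they count as 1 observation. Between the medium dose and the other doses none of these RNAs passed the test, and whether library preparation had a part in the split was not tested.

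The mitochondrial transcripts did not move together. MT-RNR1 (positions 648 to 1601 of chromosome M), the rRNA of the small mitochondrial ribosomal subunit, had 1387, 1227 and 1249 CPM in vehicle and 3315, 3362 and 2899 CPM at the medium dose. It rose 2.48-fold (log2 fold change 1.31 ± 0.11 SE, adjusted p = 5.02e-05 by edgeR), with no overlap. MT-RNR2, the rRNA of the large subunit, rose from 10274 ± 557 to 17377 ± 1018 CPM (0.76, adjusted p = 0.00661). Without vehicle library 2, at most 1 of the 2 rRNAs kept the call. None of the 13 mitochondrially encoded mRNAs was a DEG, and their median was −0.40. In the fits of the 6 libraries alone, 2 of them were upregulated DEGs by DESeq2 and 1 by edgeR. MT-ND1 and MT-ND2, which lie directly after the rRNAs, were at 0.61 (adjusted p = 0.411) and 0.65 (adjusted p = 0.266). The other 11 lay between −0.07 for MT-CO1 and −0.96 for MT-ND6 (adjusted p = 0.348). The first 4 of these genes in the order of the chromosome were above 0 and the other 11 were below, a pattern that was not tested. MTND2P28, a nuclear copy of MT-ND2 that can share its reads, was upregulated by 0.97 (adjusted p = 0.028), a call that 9 of 16 alternatives kept.

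**Figure D4:**
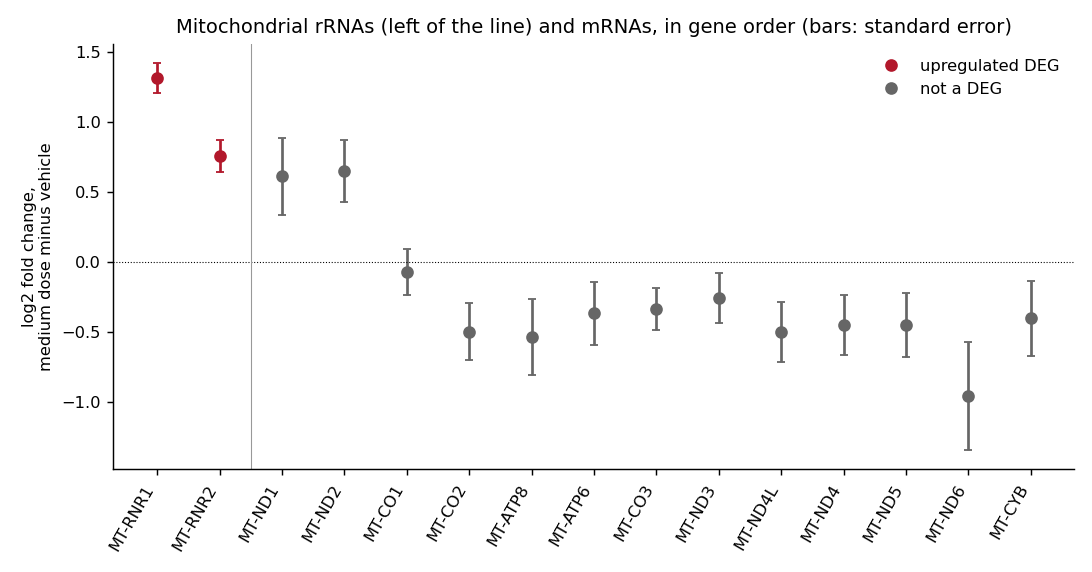
Log2 fold change, medium dose minus vehicle, of the 2 mitochondrial rRNAs and 13 mRNAs in gene order, with bars for the standard error of edgeR's fit. MT-RNR1 at 1.31 and MT-RNR2 at 0.76 are DEGs, MT-ND1 and MT-ND2 are above 0 without passing the test, and the other 11 genes are below 0.

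To place the medium dose, it was compared with the neighbouring doses in the same fit. Between the medium and the low dose there were 16 DEGs (0.104% of the genes tested), of which 15 (0.0976%) were higher and 1 (0.0065%) was lower at the medium dose. Between the high and the medium dose there were 75 DEGs (0.488%), of which 49 (0.319%) were higher and 26 (0.169%) were lower at the high dose. These comparisons use the same medium-dose libraries as the comparison with vehicle, so counts of the 104 DEGs within them are a description. All 15 genes that were higher at the medium than at the low dose were among the 59 upregulated genes, whose median was 0.58 in that comparison. Between the high and the medium dose, 6 of the 59 were higher and 2 were lower, with a median of 0.08.

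The AhR targets differed in where they rose. CYP1A1 had 5.84, 2.18 and 3.31 CPM at the low dose and 92.1, 102 and 101 CPM at the high dose. The step from low to medium was 4.56 on the log2 scale (SE 0.25, adjusted p = 5.48e-06 by edgeR), whereas the step from medium to high was 0.13 (SE 0.20, adjusted p = 0.805). CYP1B1 had steps of 1.68 (adjusted p = 0.00021) and −0.20 (adjusted p = 0.633), and TIPARP of 0.69 (adjusted p = 0.00563) and 0.08 (adjusted p = 0.717). The mean of TIPARP was already at 108 CPM at the low dose, between 64.7 CPM in vehicle and 174.3 CPM at the medium dose. NQO1 had means of 503, 513, 634 and 930 CPM in vehicle and at the low, medium and high dose, respectively, and SLC7A5 had 289, 291, 335 and 538 CPM. Both also belong to another list, NQO1 to the NRF2 targets and SLC7A5 to the ATF4 targets. Neither passed the test against vehicle at the medium dose. ALDH1A3 had 69.0, 78.9 and 73.5 CPM at the high dose, below all medium-dose libraries, and its steps were 1.4 (adjusted p = 2.95e-05) and −0.44 (adjusted p = 0.0521). ADGRF1, SLC22A3 and PIM1 also had a DEG step from low to medium (0.87, 0.97 and 0.84), and their steps from medium to high were −0.15, 0.11 and −0.10, which did not pass the test.

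CXCL1 differed in both steps, by 0.96 from low to medium (adjusted p = 0.0432 by edgeR) and by 1.04 from medium to high (adjusted p = 0.00459), with 6.35, 6.77 and 6.8 CPM at the low dose and 22.2, 34.5 and 23.8 CPM at the high dose. CCL20 (1.33, adjusted p = 0.0223) and PI3 (0.72, adjusted p = 0.0142) were higher at the high than at the medium dose. SLC7A11 differed in both steps as well, by 0.63 (adjusted p = 0.0355) and 0.59 (adjusted p = 0.0141). PIGR had 2.51, 2.75 and 3.04 CPM at the low dose and 1.44, 1.20 and 1.45 CPM at the high dose. It did not differ between the low and the medium dose by the test (0.15, adjusted p = 1) and was lower at the high than at the medium dose by 1.15 on the log2 scale (SE 0.17, adjusted p = 0.00574), with no overlap of those libraries.

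Several further genes differed between the high and the medium dose. CHAC1 was at 2.59 ± 0.473 CPM in vehicle, at 3.79 ± 0.381 CPM at the medium dose, with all 3 libraries above vehicle, and at 20.0 ± 2.27 CPM at the high dose, a step of 2.41 (adjusted p = 9.59e-07 by edgeR). The steps were 1.89 for ASNS (adjusted p = 1.11e-05), 1.85 for DDIT4 (adjusted p = 5.98e-08), 1.3 for PSAT1 (adjusted p = 5.4e-06) and 0.84 for HMOX1 (adjusted p = 0.00265). NOX1 was lower again at the high dose (−0.66, adjusted p = 0.00444), as was the alcohol dehydrogenase ADH6 (−0.83, adjusted p = 0.00444). BTG2, an antiproliferative gene, went from 32.8 ± 2.05 to 20.0 ± 1.90 CPM (−0.71, adjusted p = 0.0023). MT-RNR1 differed by 1.53 from low to medium (adjusted p = 3.37e-05) and by 3.25 from medium to high (adjusted p = 3.11e-08), where its share of all counts reached 2.81%.

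**Figure D5:**
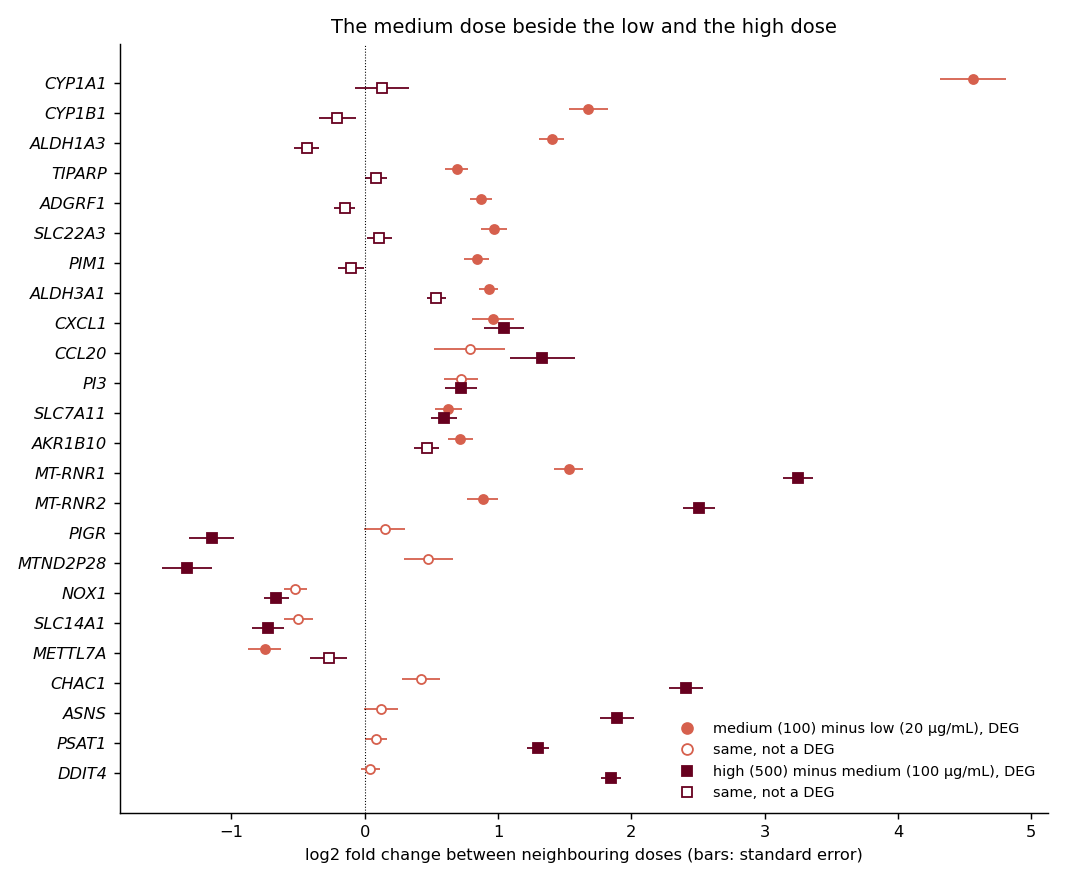
Log2 difference of the medium from the low dose (circles) and of the high from the medium dose (squares) for 24 genes, with bars for the standard error and filled symbols for DEGs of that comparison. CYP1A1 has a step of 4.56 to the medium dose and 0.13 beyond it, CHAC1 one of 0.42 and 2.41, and PIGR one of 0.15 and −1.15.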

How the data were processed

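HT29 RNA was sequenced as 100 bp paired-end reads from libraries made with a directional MGI kit. The submitters' processing notes name FastQC 0.11.9, Trim Galore 0.6.5, STAR 2.7.3a, RSEM 1.3.3 and the build GRCh38. The file deposited by the authors holds RSEM expected counts for each gene ID without normalization. They were made whole by rounding, filtered with filterByExpr and scaled by TMM. Coordinates are those of GENCODE release 44, which held 93.2% of the gene IDs, and 747 of 753 genes in 43 lists were matched by symbol.

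The medium dose was compared with vehicle, the high dose and the low dose in edgeR 4.0.16 (R 4.3.3, limma 3.58.1). A robust quasi-likelihood fit with group as its sole term took in 12 libraries, and for each comparison the Benjamini–Hochberg adjustment covered 15374 genes. A gene was called a DEG past both limits, an adjusted p of 0.05 and a 1.5-fold change. The standard error was computed from the F statistic of the test, and the biological coefficient of variation was 11.2%. Library totals were between 15941250 and 33866636. Intervals and limits from counts cover counting error only. In simulated medium-dose data of 15169 genes, edgeR called 21 of 50 genes changed 1.5-fold and 49 of 50 changed 2-fold, with 6 wrong calls among the genes left unchanged. The call itself needs a fold change over 1.5, so genes simulated at that size can pass only in part. All changed genes were drawn from those with over 50 expected counts per library, so these figures do not cover genes of lower counts. Each simulated gene had the spread of the trend at its expression level, and no simulated library stood apart from its group. The real data are less even, so the figures may not hold for them.

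Genes were named by a rule. It took the 12 DEGs at either end of the log2 fold change that averaged 1 CPM or more and whose groups did not overlap, up to 3 members of each list past the adjusted p, the 10 DEGs with the smallest p, the anchor genes of each list, and per direction the 5 DEGs with the smallest p between doses. A selection of these is printed, and 1 of them is not reported here. The members, lists and tests were chosen with earlier results of these data known. Alternatives were DESeq2 1.42.0, fits of the 6 libraries alone or without high-dose library 2, other scaling factors, another filter (none, or 10 counts or more everywhere), the replicate number as a block, no minimum fold change and the omission of single libraries. Omission of the mitochondrial rRNAs was chosen after seeing the data. Replicate numbers were not taken as pairs in the main fit. The deviations of same-numbered vehicle and medium-dose libraries from their group means correlated at −0.087, −0.021 and −0.123. Those of differently numbered libraries correlated between −0.075 and 0.130. With 3 libraries per group, these values cannot show whether equal numbers share a culture or a day. No libraries of these groups held the same counts within sampling noise. Tables and figures were made with Python 3.11.15, numpy 2.4.6, pandas 2.3.3, scipy 1.17.1 and matplotlib 3.10.9.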

Additional observations from a re-analysis of the deposited data

Results flagged for a closer look

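In 2 genes, the rise seen at the medium dose was smaller or absent at the high dose, by the test of the high against the medium dose. PIGR, the transporter of IgA and IgM, was upregulated at the medium dose and was lower at the high dose (log2 difference −1.15, adjusted p = 0.00574 from edgeR's quasi-likelihood test), with 2.89, 2.71 and 3.60 CPM at the medium dose and 1.44, 1.20 and 1.45 CPM at the high dose. MTND2P28, the nuclear copy of MT-ND2, was upregulated at the medium dose and lower at the high dose (log2 difference −1.33, adjusted p = 0.00444), with 242, 251 and 229 CPM and 119, 88.6 and 78.6 CPM, respectively. Reads of MTND2P28 and of MT-ND2 can be exchanged in counting, and their part in this value was not tested.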

How the results depend on the processing

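Against vehicle there were 104 DEGs (59 upregulated, 45 downregulated). The count rose to 158 (80 downregulated) with DESeq2 on the 6 libraries, 191 (91 and 100) with edgeR on the 6 libraries and 249 (108 and 141) without high-dose library 2 in the joint fit, which held 82, 103 and 104 of the 104 genes, respectively. DESeq2 on all libraries gave 72 downregulated genes. The common dispersion was 0.0126 in the joint fit and 0.00409 in the fit of the 6 libraries. With the replicate number as a block there were 75 DEGs, of which 26 were downregulated and 73 were among the 104, and the count moved from 75 to 63 between the high and the medium dose and from 16 to 11 between the medium and the low dose. What equal replicate numbers share is not given in the sources, and the reason for the lower counts was not tested.

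Leaving out 1 library gave between 52 and 78 DEGs, from 40 to 51 upregulated and from 12 to 27 downregulated. The total was 52 without vehicle library 2, 59 without medium-dose library 3, 63 without medium-dose library 1 and 69 without vehicle library 1. For the high against the medium dose the range was 44 to 100, with 44 without medium-dose library 2 and 48 without medium-dose library 3. For the medium against the low dose it was 8 to 14, with 8 without medium-dose library 2 and 9 without low-dose library 2 or 3 or medium-dose library 1 or 3, while 29 DEGs were found without high-dose library 2. Of the 104 DEGs, 42 (32 upregulated and 10 downregulated) were called in every one of the 16 alternatives that fitted them. Genes of few counts, such as CYP1A1, were not fitted in all 16. Of 117 single-gene results, all past the adjusted p in the main fit, 0 changed direction. The alternatives used the same libraries, so a change of direction was unlikely from the start. Over these genes and settings, 1451 results kept an adjusted p under 0.05 and 397 lost it. Depth limits genes near the filter, such as C3 with 1 vehicle count.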

Other observations

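Lists not yet described held members past the adjusted p but under the minimum fold change. The water and glycerol channel gene AQP3 was at 94.6 ± 4.98 CPM in vehicle and at 128 ± 4.59 CPM with extract (SD, n = 3 libraries each, log2 fold change 0.43, adjusted p = 0.0068 from edgeR's test), whereas KCNE3, a subunit of the basolateral potassium channel, went from 63.2 ± 2.15 to 50 ± 2.31 CPM (−0.34, adjusted p = 0.0472). ABCB6, a porphyrin transporter, was at 0.41 (adjusted p = 0.0194), the peptide transporter subunit TAP2 at 0.36 (adjusted p = 0.0315), IER3, an early response gene, at 0.54 (adjusted p = 0.0272), and CYP4F12, a P450 enzyme outside the CYP1 family, at 0.54 (adjusted p = 0.0472). AREG, an EGFR ligand like epiregulin, did not pass the test (0.42, adjusted p = 0.279).

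Genes of crypt and secretory cells did not pass the test and lay on both sides of 0. Of 16 Wnt targets and crypt stem genes, 0 were DEGs, 4 had a log2 fold change above 0, and the median was −0.14. DKK1, a secreted Wnt inhibitor, was at 20.9 ± 1.28 CPM in vehicle and 12.1 ± 0.346 CPM at the medium dose (−0.79, adjusted p = 0.0576), ASCL2, a crypt stem cell factor, at −0.77 (adjusted p = 0.135) and LGR5 at 0.30 (adjusted p = 0.384). Of 17 mucin and goblet cell genes, 0 were DEGs, 6 had a log2 fold change above 0 and the median was −0.08, with MUC5AC at 0.63 (adjusted p = 0.486), ATOH1, the factor of the secretory lineage, at −0.72 (adjusted p = 0.0816), the trefoil peptide gene TFF3 at −0.65 (adjusted p = 0.11) and MUC2 at 0.08 (adjusted p = 0.955). Alternatives called up to 2 of the Wnt and crypt genes lower, and up to 2 of the mucin and goblet cell genes lower and 1 higher, as edgeR did on the 6 libraries alone. Of 10 replication-dependent histone genes, 0 were DEGs, and 2 had a log2 fold change above 0 (median −0.39).

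MIR3142HG, a lncRNA chosen after its values were seen, had 0 counts in each vehicle library and 9, 13 and 12 counts at the medium dose. With a floor of 3 counts over the vehicle group, it was at least 10.9-fold higher at the medium dose. Other upregulated genes of low level, also chosen after their values were seen, were FGD2 (log2 fold change 2.64, adjusted p = 0.00502), the secreted amino acid oxidase gene IL4I1 (2.09, adjusted p = 0.0393) and the cytokine gene IL32 (1.38, adjusted p = 0.0394). CEACAM7, a cell adhesion gene of colon epithelium, went from 0.508 ± 0.132 to 1.59 ± 0.0209 CPM (1.68, adjusted p = 0.00404).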
